A study of Mus musculus with 6 samples.

Results

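The genes described here encode 6 enzymes that remove methyl groups from histone H3 at lysine 4 or lysine 27 (H3K4 and H3K27). They are Kdm1b, the KDM5 genes Kdm5a, Kdm5b and Kdm5c, and the KDM6 genes Kdm6a and Kdm6b. They were taken by gene name from a table of 53023 genes, and all 6 were found and passed the filter on low levels, which 16100 genes passed. RNA-seq had been performed on ICR mouse embryos at the two-cell stage, at 28 hours post insemination (hpi), in 3 groups of 2 libraries with 5 pooled embryos per library. Non-injection embryos served as the control. PIASy-WT embryos had received mRNA for PIASy-WT-HA, PIASy being a SUMO E3 ligase, as fertilized oocytes. PIASy-Mut embryos had received mRNA for the SUMO ligase mutant PIASy-C335F, also HA-tagged. Either mRNA was injected from 1.5 to 3 hpi at a concentration of 100 ng/µl, and zygotes that fluoresced at 9 hpi were kept. No library came from embryos injected with an unrelated mRNA.

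Methylation of H3K4 marks promoters and enhancers in use, and trimethylation of H3K27 marks genes silenced by Polycomb. KDM1B (LSD2) is a flavin-dependent enzyme that removes mono- and dimethylation from H3K4. It is abundant in growing oocytes, where it is needed to set maternal DNA methylation imprints. KDM5 enzymes belong to the Jumonji family and remove di- and trimethylation from H3K4. In mouse embryos, KDM5A and KDM5B act on the broad H3K4me3 domains inherited from the oocyte, which are lost around the activation of the zygotic genome at the two-cell stage. KDM6A (UTX) and KDM6B (JMJD3) remove di- and trimethylation from H3K27, and KDM6A is also a subunit of H3K4 methyltransferase complexes.

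The levels are FPKM, fragment counts scaled to the length of the gene and the depth of the library, so that genes can be compared per length. The libraries held from 871663 to 1363928 fragments on genes, and 3 fragments corresponded to 2.20 to 3.44 CPM, a count scaled to depth alone. Intervals given for single libraries are exact 95% Poisson intervals and cover counting error only, since the reads had no molecular identifiers. Pias4, which encodes PIASy, was measured at 2.98 and 3.59 FPKM without injection and at 579 to 862 FPKM in the 4 injected libraries. All 11 oocyte and early embryo markers examined passed the filter, and their summed level was between 8970 and 11783 CPM. Both PIASy-WT libraries were below all 4 others for 3 of the 11 (Zp3, Dppa3 and Padi6), above them for 1 (Bmp15) and overlapping for 7. Among all genes tested, 24.4% were below and 19.9% above in this way. Bmp15 was at 1283 and 1478 FPKM in PIASy-WT embryos and between 328 and 745 FPKM in the other libraries, and Zp3 at 25.1 and 22.4 FPKM against 70.9 to 80.6 FPKM. The summed level of 15 two-cell stage genes was 3560 and 3381 CPM in non-injection embryos, 3691 and 3946 in PIASy-Mut embryos, and 2098 and 1576 in PIASy-WT embryos, so both PIASy-WT libraries were below the others in the sum. Among single genes of this list, both were below all 4 other libraries for 7 (24.4% of all genes tested), above them for 1 (19.9%), which was Usp17le, and overlapping for 7. Their part in the differences given here was not tested. Of the 12 cumulus and granulosa cell markers, 3 passed the filter and Amh, Foxl2 and Inha were at 0 in all 6 libraries, and the sum over all 12 was at most 27.5 CPM. Of the 12, both PIASy-WT libraries were below all others for 1 (24.4% of all genes tested), above for 1 (19.9%) and overlapping for 10. The gene below was Amhr2, one of those that passed, with 3 and 4 fragments with PIASy-WT and from 8 to 22 in the other libraries. The gene above was Ptgs2, which did not pass, with 2 and 4 fragments against at most 1. The 7 sperm markers summed to at most 4.40 CPM with Akap4, Smcp and Tnp2 at 0. In pooled embryos, fewer cells and less RNA per cell cannot be told apart, and the levels are shares of each library.

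Kdm5b was the 1 of the 6 genes whose level passed the test in PIASy-WT embryos, where it was lower than in both other groups. The upstream sequences of Kdm1b and Kdm5b are shown because these genes encode an oocyte-stored and a Jumonji enzyme that act on the same lysine, and 1 of them was called and the other was not. Each is 250 bases before the transcription start in RefSeq on GRCm38.p6, plus strand, at chr13:47043249-47043498 for Kdm1b and chr1:134559928-134560177 for Kdm5b. Capitals mark GC boxes, the letters GGGCGG on either strand.
Kdm1b: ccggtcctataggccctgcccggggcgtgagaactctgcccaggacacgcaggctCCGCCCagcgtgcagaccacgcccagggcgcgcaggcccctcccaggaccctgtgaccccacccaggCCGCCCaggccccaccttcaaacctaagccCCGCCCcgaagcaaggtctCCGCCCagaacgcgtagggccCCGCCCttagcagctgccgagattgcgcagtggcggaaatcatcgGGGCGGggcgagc
Kdm5b: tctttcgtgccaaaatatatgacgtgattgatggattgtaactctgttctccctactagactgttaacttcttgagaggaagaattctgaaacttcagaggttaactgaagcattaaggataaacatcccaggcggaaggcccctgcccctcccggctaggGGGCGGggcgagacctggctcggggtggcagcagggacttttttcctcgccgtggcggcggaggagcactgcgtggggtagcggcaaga
The Kdm1b window held 6 GC boxes and 22 CpG sites with 71.6% G and C. That of Kdm5b held 1 GC box and 13 CpG sites with 54.4% G and C. In Kdm5c (10 CpG sites, no GC box) and Kdm6a (15 CpG sites, 1 GC box) the same window was read, which gave 4 of the 6 genes matched by symbol. Of all 32536 windows of this length, 33.0% held a GC box and the median was 6 CpG sites. The CCAAT box (CCAAT, either strand) was in 33.8% of windows and, among these 4 genes, in Kdm5c alone. The E-box CACGTG was in 6.04% of windows and, among the 4, in Kdm6a alone. TATAAA, in 12.3% of windows, and TGACGTCA, in 1.56%, were found in none of the 4. These are matches of letters, and binding was not measured.

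Kdm1b (ENSMUSG00000038080.17, mm10 chr13:47043499-47085279, plus strand) was among the 3 most abundant of the 6 genes in every group. Its FPKM was 22.3 and 14.0 in non-injection embryos, 6.70 and 13.8 in PIASy-Mut embryos, and 19.8 and 20.4 in PIASy-WT embryos, from 38 to 167 fragments per library. The PIASy-WT libraries lay within the range of the non-injection libraries and above both PIASy-Mut libraries, of which the first was the lowest of the 6. The groups were compared by limma on log2(FPKM + 1) over the 16100 genes with Benjamini-Hochberg adjustment. To be called, a gene needed an adjusted P no higher than 0.05 and a difference of 1 or more, up or down, on the log2 scale. Nothing in the labels says that replicate libraries came from separate experiments, so the P-values measure the spread between these libraries. The log2 fold change of Kdm1b was 0.17 between PIASy-WT and non-injection embryos (standard error 0.41, 95% interval -0.83 to 1.18, adjusted P=0.812 by limma). Against PIASy-Mut it was 0.98 (95% interval -0.02 to 1.99, adjusted P=0.187 by limma), and for PIASy-Mut against non-injection it was -0.81 (95% interval -1.81 to 0.19, adjusted P=1 by limma). None of the 3 comparisons passed, and the intervals leave room for a change of more than 1 on the log2 scale in each. Over the 15 alternatives described below, the difference against PIASy-Mut ran from 0.51 to 1.45. That of PIASy-Mut against non-injection ran from -1.28 to -0.34. Kdm1b shares 505 bases (9.19% of its length) with Dek on the other strand, which had from 636 to 994 fragments per library. Whether strand was used in counting is not given in the sources used here, so reads from the shared bases cannot be assigned with certainty. The paralogue Kdm1a (LSD1), which acts on the same methylation states, was at a lower FPKM in every library, between 1.99 and 5.61, with no call in any comparison. Per longest coding transcript the order turned in the first PIASy-Mut library, with 9.60 for Kdm1a and 7.38 for Kdm1b.

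Kdm5b (ENSMUSG00000042207.17, mm10 chr1:134560171-134635285, plus strand) overlapped in level with Kdm1b in non-injection and PIASy-Mut embryos, except that it was the higher by far in the first PIASy-Mut library. Its FPKM was 13.3 and 17.1 in non-injection embryos, 19.96 and 13.1 in PIASy-Mut embryos, but 3.65 and 3.15 in PIASy-WT. Both PIASy-WT libraries were far below the other 4, and their counting intervals, 2.89 to 4.54 and 2.41 to 4.06, reached none of those of the other libraries. The fragments behind these values numbered 301 and 320, then 341 and 189, and 80 and 60. The mean FPKM in PIASy-WT was 3.40 ± 0.348 (SD, n = 2), which was 4.47-fold lower than the 15.2 ± 2.66 of non-injection and 4.86-fold lower than the 16.5 ± 4.85 of PIASy-Mut. On the log2(FPKM + 1) scale Kdm5b fell by 1.87 against non-injection (standard error 0.34, 95% interval -2.69 to -1.05, adjusted P=0.0358 by limma). Against PIASy-Mut it fell by 1.97 (standard error 0.34, 95% interval -2.79 to -1.15, adjusted P=0.0322 by limma). The call against non-injection was also lost with the replicate block (adjusted P=0.0514 by limma), with no filter (0.146) and without a trend in eBayes (0.0537), and that against PIASy-Mut with no filter (0.131) and with only the 4 libraries compared (0.0750). Against non-injection it was lost when any 1 of the 4 libraries compared was left out, with a log2 difference from -2.04 to -1.71 (adjusted P from 0.125 to 0.209 by limma). Against PIASy-Mut it was kept without PIASy-Mut replicate 2 and lost without any of the other 5 libraries, at -2.05 to -1.68 (adjusted P from 0.0777 to 0.169 by limma). Where such a fit left 1 library in a group, that library was assumed to vary like the other groups, and the fits that lost the call made 0 or 1 call among all genes. In PIASy-Mut against non-injection the difference was 0.09 (95% interval -0.73 to 0.91, adjusted P=1 by limma).

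Read against the whole table, 1 of the 6 genes called in PIASy-WT against non-injection stands beside 6.8% of all genes called, and 5.76% called lower. In PIASy-WT against PIASy-Mut, 1 of 6 stands beside 6.83% called and 6.01% called lower. In PIASy-Mut against non-injection none of the 6 was called, beside 0.00621% of all genes, which is 1 gene. At an unadjusted P under 0.05 by limma, 2 of the 6 passed in PIASy-WT against non-injection beside 28.2% of all genes, 2 against PIASy-Mut beside 27.7%, and 0 in PIASy-Mut against non-injection beside 4.46%. The 2 comparisons with PIASy-WT share its libraries and are not independent. The median log2 fold change of the 6 genes was 0.10, 0.28 and 0.02 in these 3 comparisons, and that of all genes tested 0.01, -0.03 and 0.04.

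**Figure D1:**
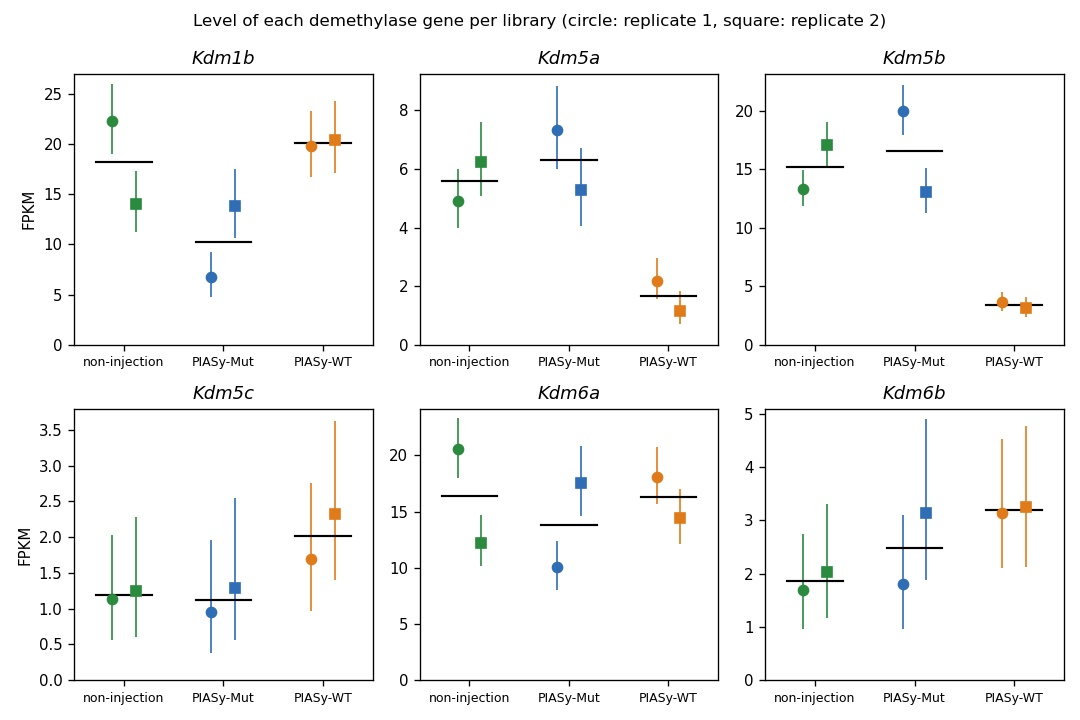
FPKM (linear axis from 0, a scale of its own in each panel) of each gene in each library. Circles are replicate 1, squares replicate 2, vertical lines exact 95% Poisson intervals of single libraries and horizontal bars group means (n = 2). The PIASy-WT libraries of Kdm5b, at 3.65 and 3.15, and of Kdm5a, at 2.18 and 1.17, sit below all 4 others, whereas those of Kdm1b and Kdm6a overlap with them.

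Kdm5a (ENSMUSG00000030180.15, mm10 chr6:120364124-120444574, plus strand) had the next largest difference. Its FPKM was 4.92 and 6.25 in non-injection embryos, 7.32 and 5.27 in PIASy-Mut embryos, and 2.18 and 1.17 in PIASy-WT embryos. As for Kdm5b, both PIASy-WT libraries lay below the other 4, here from 41 and 19 fragments against 65 to 107. Its mean in PIASy-WT was 3.33-fold below that in non-injection and 3.76-fold below that in PIASy-Mut. The log2 difference was -1.32 against non-injection (95% interval -2.27 to -0.36, adjusted P=0.0939 by limma) and -1.46 relative to PIASy-Mut (95% interval -2.41 to -0.50, adjusted P=0.0768 by limma). The intervals of both differences lay below 0, but neither passed the threshold after adjustment. Voom on recovered fragments called Kdm5a lower in both, at -1.74 (adjusted P=0.00818) and -1.93 (adjusted P=0.00512). In PIASy-Mut against non-injection the difference was 0.14 (95% interval -0.81 to 1.10, adjusted P=1 by limma). A stretch of 251 bases (1.77% of its length) is shared with Ccdc77 on the other strand.

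The X-linked Kdm5c (ENSMUSG00000025332.14, mm10 chrX:152233020-152274535, plus strand) was the least abundant KDM5 gene in non-injection and PIASy-Mut embryos. Its FPKM was 1.13 and 1.24 in non-injection embryos, 0.954 and 1.29 in PIASy-Mut embryos, and 1.70 and 2.32 in PIASy-WT embryos. The PIASy-WT libraries were above the others, but on 16 and 19 fragments against 7 to 11, and the counting intervals overlapped. The log2 difference was 0.45 against non-injection (95% interval -0.49 to 1.39, adjusted P=0.481 by limma) and 0.50 relative to PIASy-Mut (95% interval -0.44 to 1.44, adjusted P=0.447 by limma). Neither difference passed the threshold. Kdm5d, its copy on the Y chromosome, had between 2 and 15 fragments per library and did not pass the filter.

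Kdm6a (ENSMUSG00000037369.17, mm10 chrX:18162575-18279936, plus strand), the more abundant H3K27 demethylase gene, overlapped between all groups. Its FPKM was 20.6 and 12.2 in non-injection embryos, 10.1 and 17.5 in PIASy-Mut embryos, and 18.1 and 14.4 in PIASy-WT embryos, from 87 to 235 fragments. The replicates of non-injection and of PIASy-Mut differed from each other by more than the group means did. The log2 difference was 0.02 against non-injection (95% interval -0.94 to 0.99, adjusted P=0.989 by limma) and 0.26 relative to PIASy-Mut (95% interval -0.70 to 1.23, adjusted P=0.705 by limma). Uty, its copy on the Y chromosome, was at an FPKM of 3.82 and 3.25 in non-injection embryos, 3.96 and 0.820 in PIASy-Mut embryos, and 1.08 and 0.622 in PIASy-WT embryos. The second PIASy-Mut library lay between the PIASy-WT libraries, and the log2 difference of Uty was -1.30 against non-injection (95% interval -2.67 to 0.07, adjusted P=0.194 by limma). Voom on recovered fragments called it lower there, at -2.02 (adjusted P=0.0366). The sexes of the pooled embryos are not given in the labels, and their part in the levels of these Y-linked genes was not tested.

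Kdm6b (ENSMUSG00000018476.7, mm10 chr11:69398508-69413675, minus strand) was expressed at a low level. Its FPKM was 1.69 and 2.03 in non-injection embryos, 1.81 and 3.13 in PIASy-Mut embryos, and 3.15 and 3.25 in PIASy-WT embryos, from 13 to 29 fragments. The PIASy-WT libraries were above the others, by a margin within the counting error of the second PIASy-Mut library. The log2 difference was 0.56 against non-injection (95% interval -0.40 to 1.51, adjusted P=0.397 by limma) and 0.30 relative to PIASy-Mut (95% interval -0.65 to 1.26, adjusted P=0.652 by limma). Over the 14 alternatives with a value, these differences ran from 0.47 to 0.79 and from 0.022 to 0.58. It shares 286 bases (4.11% of its length) with the antisense gene Kdm6bos, which had at most 1 fragment in a library. Counted over the 6 genes, both PIASy-WT libraries were below all 4 others for 2 and above all 4 for 2, beside 24.4% and 19.9% of all genes tested.

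**Figure D2:**
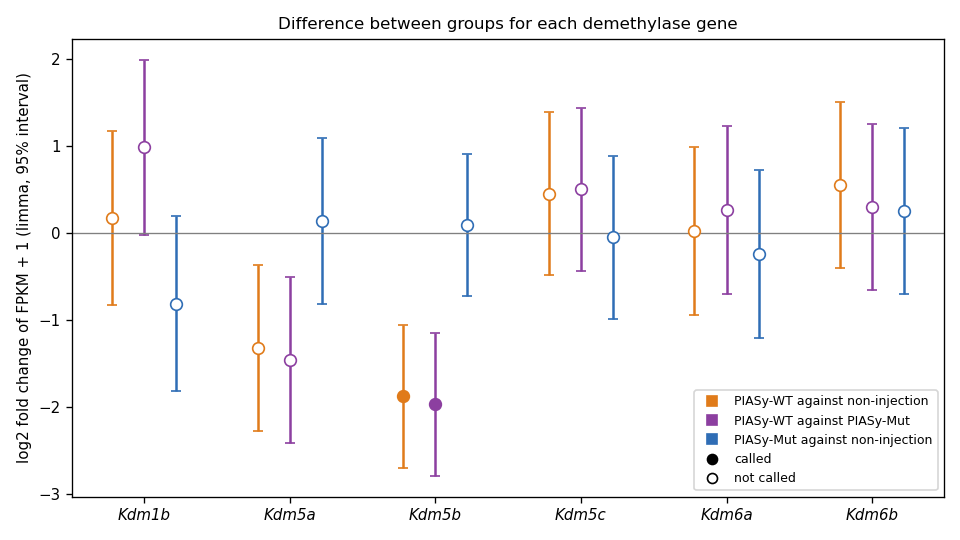
Log2 fold change of FPKM + 1 (limma, all 6 libraries) for each gene in the 3 comparisons, with 95% intervals as bars. Filled points were called and open points were not. The filled points are those of Kdm5b at -1.87 and -1.97, and the intervals of Kdm5a also lie below 0 in both comparisons with PIASy-WT.

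In the non-injection embryos the order of the mean FPKM was Kdm1b (18.1 ± 5.86, SD, n = 2), Kdm6a (16.4 ± 5.88), Kdm5b (15.2 ± 2.66), Kdm5a (5.58 ± 0.938), Kdm6b (1.86 ± 0.246) and Kdm5c (1.19 ± 0.0774). The first 3 overlapped in their replicates, and each of the other 3 was separate from its neighbours. In PIASy-Mut embryos Kdm5b (16.5 ± 4.85, SD, n = 2) came first, before Kdm6a (13.8 ± 5.28), Kdm1b (10.2 ± 5.01), Kdm5a (6.29 ± 1.45), Kdm6b (2.47 ± 0.936) and Kdm5c (1.12 ± 0.238). Here each of the first 4 overlapped with its neighbour, and Kdm6b and Kdm5c were separate. In PIASy-WT embryos Kdm1b (20.1 ± 0.461, SD, n = 2) and Kdm6a (16.3 ± 2.59) stood above the rest. They were followed by Kdm5b (3.40 ± 0.348), Kdm6b (3.20 ± 0.0753), Kdm5c (2.01 ± 0.443) and Kdm5a (1.68 ± 0.719), among which Kdm5b overlapped with Kdm6b, and Kdm5c with Kdm5a.

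This order depends on the length used. The deposited lengths count every annotated exon of a gene, 16555 bases for Kdm5b against 8714 in its longest coding transcript in GENCODE M21, and 5495 against 4987 for Kdm1b. Per longest coding transcript, Kdm5b was first in non-injection with a mean of 28.9, before Kdm6a with 23.2 and Kdm1b with 19.99. In PIASy-WT it had 6.46 on this scale, after Kdm6a with 23.0 and Kdm1b with 22.1. The place of Kdm5b below both in PIASy-WT did not depend on the choice of length, but its overlap with Kdm6b there did, since on this scale Kdm5b was at 6.93 and 5.99 and Kdm6b at 3.29 and 3.40.

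**Figure D3:**
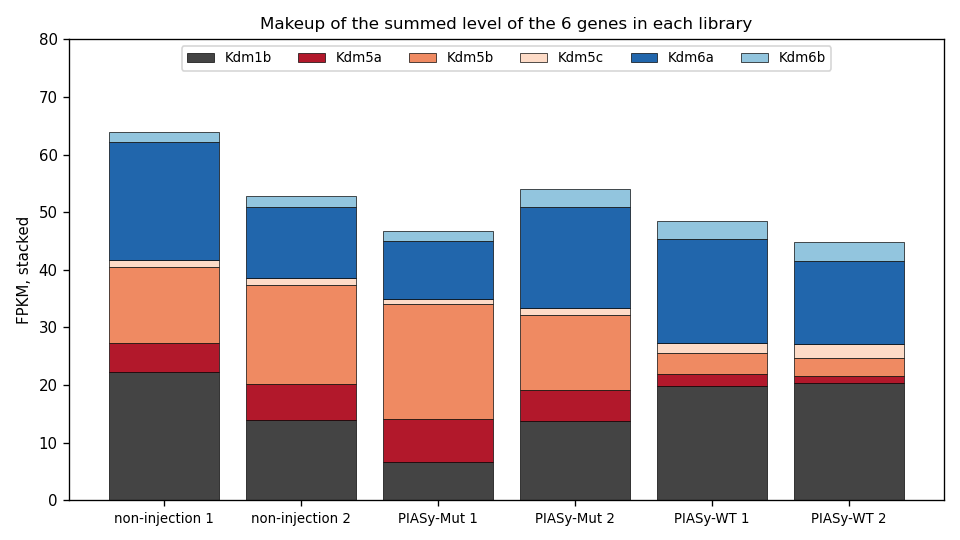
FPKM of the 6 genes stacked for each library (linear axis from 0, no error bars, each bar 1 library). The Kdm5a and Kdm5b segments are thin in both PIASy-WT libraries, while the height of the whole bar runs from 44.7 to 63.9 over all libraries.

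Seen within each library, the balance between the enzyme families differed in the PIASy-WT embryos. The KDM5 genes together gave 30.3% and 46.5% of the summed FPKM of the 6 genes in non-injection embryos, 60.3% and 36.3% in PIASy-Mut embryos, and 15.5% and 14.9% in PIASy-WT embryos. Kdm1b gave 34.9% and 26.5%, then 14.3% and 25.5%, and 40.7% and 45.6% in the same order, so it was highest in the PIASy-WT libraries. The KDM6 share was between 25.4% and 38.2% in the 4 other libraries, and 43.8% and 39.5% with PIASy-WT. Per longest coding transcript the KDM5 share was 18.7% and 17.9% with PIASy-WT and between 37.3% and 67.4% in the other 4 libraries. The sum itself was 48.5 and 44.7 with PIASy-WT, below both libraries without injection (63.9 and 52.9). The PIASy-Mut libraries, at 46.8 and 54.1, overlapped with both other groups in the total. The shares of a library add up to a whole, and a high share of one family follows in part from a low share of another.

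Among H3K4 demethylases, the ratio of Kdm1b to Kdm5b was 1.67 and 0.819 in non-injection embryos, 0.336 and 1.05 in PIASy-Mut embryos, and 5.42 and 6.48 in PIASy-WT embryos. Per longest coding transcript the ratio was 0.969 and 0.475 without injection, 0.195 and 0.610 with PIASy-Mut, and 3.15 and 3.76 with PIASy-WT. On both lengths Kdm1b was the more abundant in both PIASy-WT libraries. Per longest coding transcript Kdm5b was the more abundant in each of the other 4, and on the deposited length their order differed between libraries. Kdm5b gave 68.8% and 69.5% of the KDM5 sum in non-injection embryos, 70.7% and 66.6% in PIASy-Mut embryos, and 48.4% and 47.4% in PIASy-WT embryos. The ratio of Kdm5b to Kdm5a was between 2.49 and 2.74 in the 4 other libraries and was 1.67 and 2.70 in PIASy-WT, so these groups overlapped and the lower share was accompanied by the higher Kdm5c values. Kdm6a gave 81.6% to 92.4% of the KDM6 sum in all 6 libraries.

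The contrast of Kdm1b with the other 5 genes was also taken as the log2(FPKM + 1) of Kdm1b minus the mean of theirs. It was 1.87 and 1.20 in non-injection embryos, 0.27 and 1.10 in PIASy-Mut embryos, and 2.05 and 2.23 in PIASy-WT embryos. Both PIASy-WT libraries were above the other 4. The difference was 0.61 between PIASy-WT and non-injection and 1.46 between PIASy-WT and PIASy-Mut, each with P=0.333 in a two-sided exact permutation test. PIASy-Mut against non-injection gave -0.85, again with an exact permutation P of 0.333. This is the smallest P that 2 libraries against 2 can give, so the test could not pass in this design.

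Enzymes that work with the demethylases or against them were described from lists of partner, related and opposing genes. Of 7 genes for LSD1 and its CoREST partners, 6 were tested, 1 was called lower and 0 higher in PIASy-WT against non-injection, with a list median of -0.17, beside 5.76% of all genes called lower. At an unadjusted P under 0.05 by limma it was also 1 of the 6 against non-injection (28.2% of all genes) and against PIASy-Mut (27.7%). The gene was Hdac1, a histone deacetylase of many complexes, measured at an FPKM of 28.3 and 26.4 in non-injection embryos, 31.2 and 24.3 in PIASy-Mut embryos, and 8.76 and 9.34 in PIASy-WT embryos. Its log2 difference was -1.50 against non-injection (adjusted P=0.0356 by limma), and for PIASy-Mut as the reference it was -1.51 (adjusted P=0.0342 by limma). The call against non-injection was lost without any 1 of the 4 libraries compared (-1.54 to -1.45, adjusted P from 0.155 to 0.204 by limma), with no filter, without a trend in eBayes and with the replicate block (adjusted P=0.0504 by limma). That against PIASy-Mut was kept, among the fits without 1 library, only without PIASy-Mut replicate 2. This call was also lost with no filter, with only the 4 libraries compared, with quantile scaling and without a trend in eBayes. For Glyr1, which encodes a cofactor of KDM1B and was chosen after its values were seen, the libraries gave an FPKM of 1.53 and 4.23 in non-injection embryos, 11.3 and 4.80 in PIASy-Mut embryos, and 3.15 and 3.64 in PIASy-WT embryos. It was not called in any comparison, and its PIASy-WT libraries lay within the non-injection range.

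Of 7 other Jumonji enzymes, 6 were tested and 1 was called lower in PIASy-WT against non-injection, beside 5.76% of all genes, with a list median of -0.73 and a range from -2.53 to 0.58. At an unadjusted P under 0.05 there were 3 of the 6 against non-injection (28.2% of all genes) and 4 against PIASy-Mut (27.7%). The called gene was Riox2, better known as a ribosomal oxygenase than as a histone demethylase. Its FPKM was 10.9 and 17.4 in non-injection embryos, 16.7 and 12.6 in PIASy-Mut embryos, and 3.00 and 0.658 in PIASy-WT embryos. The lower PIASy-WT value came from 4 fragments. Its log2 difference was -2.53 relative to non-injection embryos (adjusted P=0.0439 by limma) and -2.59 relative to PIASy-Mut embryos (adjusted P=0.0414 by limma). Against non-injection the call was lost without any 1 of the 4 libraries compared (-3.16 to -1.89, adjusted P from 0.0716 to 0.224 by limma) and in 5 other settings, among them the replicate block (adjusted P=0.0563 by limma). Against PIASy-Mut it was kept in 3 of 15 alternatives, and the replicate block gave an adjusted P of 0.0539 by limma. Riox1 was also called against non-injection with only the 4 libraries compared, without either PIASy-Mut library and by voom, and voom added Kdm2b.

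The opposing methyltransferases gave 1 called gene. For the H3K4 methyltransferases and their COMPASS subunits, 14 of 17 genes were tested and 0 were called by limma on all 6 libraries in either direction in any comparison. At an unadjusted P under 0.05 there were 2 of the 14 in PIASy-WT against non-injection (28.2% of all genes), 3 against PIASy-Mut (27.7%) and 0 in PIASy-Mut against non-injection (4.46%). Voom on recovered fragments called Ash2l against non-injection, and Ash2l and Wdr5 against PIASy-Mut, where limma without PIASy-Mut replicate 2 also called both and limma with the filter at FPKM 5 called Wdr5. Their median was -0.05 in PIASy-WT against non-injection and 0.05 against PIASy-Mut. The smallest unadjusted P against non-injection belonged to Ash2l, a core COMPASS subunit, measured at an FPKM of 6.54 and 7.99 in non-injection embryos, 11.2 and 4.48 in PIASy-Mut embryos, and 2.86 and 2.33 in PIASy-WT embryos. Its log2 difference was -1.20 (adjusted P=0.158 by limma). Of 11 genes for PRC2, the H3K27 methyltransferase complex, 10 were tested and 1 was called lower against non-injection, beside 5.76% of all genes, with a median of -0.08 in PIASy-WT against non-injection and -0.17 against PIASy-Mut. This was Mtf2, an accessory subunit that helps PRC2 bind CpG-rich DNA, measured at an FPKM of 146 and 113 in non-injection embryos, 228 and 101 in PIASy-Mut embryos, and 32.4 and 33.1 in PIASy-WT embryos. Its log2 difference was -1.94 relative to non-injection embryos (adjusted P=0.0469 by limma) and -2.18 relative to PIASy-Mut embryos (adjusted P=0.0379 by limma). At an unadjusted P under 0.05 by limma, Mtf2 was the 1 of the 10 against non-injection (28.2% of all genes) and against PIASy-Mut (27.7%). Against non-injection its call was lost without any 1 of the 4 libraries compared (-2.13 to -1.76, adjusted P from 0.166 to 0.209 by limma) and in 5 other settings, quantile and median scaling included. Against PIASy-Mut it was kept in 6 of 15 alternatives. Ezh2, the catalytic subunit, chosen after its values were seen, was between 37.9 and 63.0 FPKM over all libraries and was not called. In PIASy-WT against PIASy-Mut, the called genes of these lists were again Hdac1, Riox2 and Mtf2, beside 6.01% of all genes called lower, and in PIASy-Mut against non-injection none was called.

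**Figure D4:**
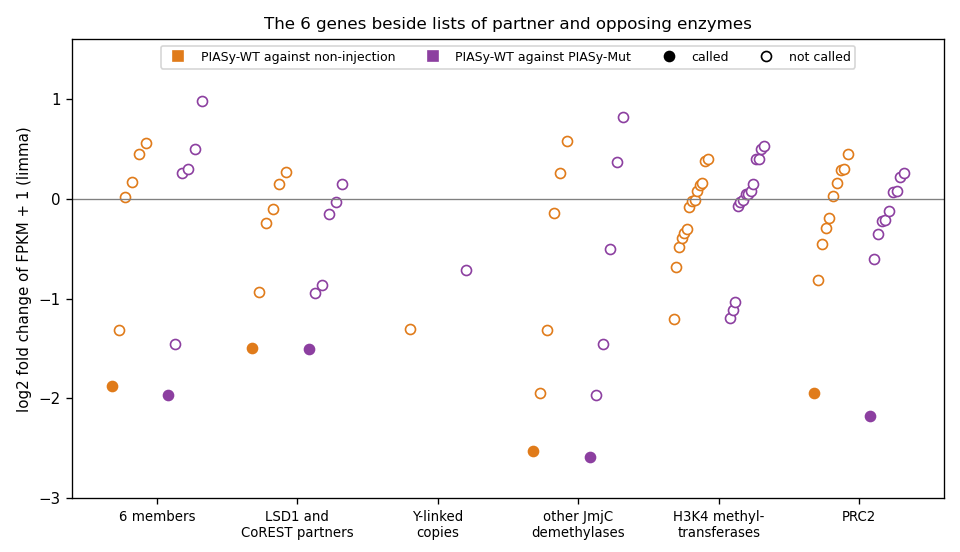
Log2 fold change of FPKM + 1 (limma) of every tested gene of each list in the 2 comparisons with PIASy-WT, which share the PIASy-WT libraries. Each point is 1 gene, filled where called. Besides Kdm5b, the filled points are Hdac1, Riox2 and Mtf2, all below 0, and the H3K4 methyltransferase list has none.

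For each gene, the 2 protein-coding genes with the most similar profile over the 6 libraries were taken by the root-mean-square difference of log2(FPKM + 1) after centring each gene, among 6160 genes with a mean of at least 20 fragments. For Kdm5b these were Tomm20, a subunit of the mitochondrial import receptor (0.0635), and Gpn1, a GTPase for the nuclear import of RNA polymerase II (0.0685). For Kdm5a they were Sptan1, which encodes a spectrin chain (0.0629), and Tcstv3, one of the two-cell stage genes above (0.0750). Kdm1b was closest to Tcl1b4 and Ttc6 (0.137 each), Kdm6a to Trim75 (0.0995) and Gm2035 (0.103). Kdm6b was closest to Phtf2 (0.0499) and B2m (0.0622). These are descriptions over 6 libraries that fall into 3 groups, and the genes were picked from many.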

How the data were processed

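RNA-seq libraries from pools of 5 embryos were amplified by the authors with SMART-Seq v4 (11 cycles of PCR) and Nextera XT (13 cycles). The authors trimmed reads at Q20 with Trim Galore, aligned them to mm10 with STAR, counted uniquely mapped reads with featureCounts, tested their counts with DESeq2 and deposited FPKM values. The annotation release and strand setting are not given in the sources used here, and 50248 of 53023 gene IDs had the same position in GENCODE M21. ERCC spike-ins were added at lysis and the table has 0 rows for them, so total RNA was not compared. Groups and replicates came from the sample titles, and 0 columns of per-sample values were left unused.

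FPKM multiplied by gene length gave whole fragments for 100% of values above 0 (tolerance 0.01), hence the depths of 871663 to 1363928 fragments. Genes reaching FPKM 1 in 2 or more libraries were fitted with limma 3.58.1 in R 4.3.3 (lmFit, eBayes with trend, all 6 libraries, no block) on log2(FPKM + 1), which understates changes of low genes. Adjustment followed Benjamini and Hochberg. The procedure was tested on simulated data. The gene sets, pathway lists and markers were chosen with earlier results of these data known. Genes named were the 6 enzymes, their paralogues Kdm1a, Kdm5d and Uty, in each list the gene with the smallest P in PIASy-WT against non-injection and those called, 2 most similar genes per enzyme (those of Kdm5c are not reported here), and Pias4. Glyr1, Ezh2, the single marker genes and the genes called only under alternatives were named after their values were seen. Promoter windows came from RefSeq (GRCm38.p6). Alternatives were a pseudocount of 0.1, no filter, a filter at FPKM 5, only the 4 libraries compared, quantile and median scaling, eBayes without a trend, voom on recovered fragments (minimum 10), a replicate block and leaving out each library. Other steps ran in Python 3.11.15 with pandas 2.3.3, numpy 2.4.6 and scipy 1.17.1, and plots in matplotlib 3.10.9.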

Additional observations from a re-analysis of the deposited data

How the results depend on the processing

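Kdm5b was lower in PIASy-WT embryos in all 15 alternatives of each comparison and was called in 8 of 15 in each. With non-injection as the reference, its log2 difference ran from -2.13 to -1.71 (adjusted P from 0.000737 to 0.209 by limma), and with PIASy-Mut from -2.25 to -1.68 (adjusted P from 0.000584 to 0.169 by limma). Against non-injection the number of the 6 genes called, 1, became 0 with no filter on low values, with eBayes without a trend and with the replicate block (adjusted P of Kdm5b 0.0514 by limma), and 2 with voom, which added Kdm5a (adjusted P=0.00818). Against PIASy-Mut it became 0 with no filter and with only the 4 libraries compared (adjusted P of Kdm5b 0.0750 by limma), and 2 with voom, again with Kdm5a (adjusted P=0.00512), and the replicate block kept it at 1. Deviations of libraries with equal replicate numbers correlated little between groups (0.064, 0.0037 and 0.085), which cannot settle whether the samples were paired. Leaving out 1 library at a time gave from 0 to 1 called gene in both comparisons. The Kdm5b call against non-injection was lost without any of the 4 libraries compared, and against PIASy-Mut it was kept only without PIASy-Mut replicate 2. In the fits without 1 library that lost it, 0 or 1 of all genes was called. Hdac1, Riox2 and Mtf2 were lower in all 15 alternatives of both comparisons, called in 8, 6 and 6 of them against non-injection and in 6, 3 and 6 against PIASy-Mut. In PIASy-Mut against non-injection 0 of the 6 were called in every alternative.

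Quantile scaling moved the median log2 difference of all genes of PIASy-WT from 0.01 to 0.12 where non-injection was the reference, and from -0.03 to 0.11 where PIASy-Mut was. No direction of the 6 genes was reversed except by leaving out 1 library. Those ranges, against non-injection, were -0.14 to 0.49 for Kdm1b and -0.33 to 0.37 for Kdm6a, and for Kdm6a against PIASy-Mut -0.11 to 0.63. In PIASy-Mut against non-injection they were -0.064 to 0.35 for Kdm5a, -0.19 to 0.38 for Kdm5b, -0.16 to 0.066 for Kdm5c, -0.61 to 0.13 for Kdm6a and -0.023 to 0.53 for Kdm6b. With the filter at FPKM 5, Kdm5c and Kdm6b had no value. The contrast of Kdm1b with the other 5 genes kept its sign, from 0.27 to 0.94, 1.04 to 1.87 and -1.26 to -0.43. At this depth Kdm5c and Kdm6b rest on fewer than 30 fragments per library.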
